A study of Mus musculus with 17 samples.

Results

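Hypothalamic spots were 600 of the 7827 capture spots of 3 Visium sections of mouse brain. They were selected on measured values: among spots with a total count of at least 1000, the 200 spots of each section with the highest score were taken, the score being the mean over Hap1, Baiap3, Resp18, Peg3 and Nap1l5 of the natural log of 1 plus the counts per 10000. The sections came from flash-frozen brains of wild-type B6 mice, were cut at 10 µm, stained for NeuN and DAPI and permeabilised for 24 minutes on the Visium slide, an array of barcoded spots that captures polyadenylated RNA in place. 2 sections were labelled as posterior (sections 2 and 6) and 1 as anterior (section 5) with respect to the anterior thalamic nuclei. The labels do not say whether the sections came from separate animals, so p-values over the 3 sections do not reach beyond these sections. The p-values and SE come from edgeR's test, which estimates the variation of a gene with the help of all genes. A printed SE is therefore not the spread of that gene's own differences over the 3 sections, which is to be read from the values per section. The hypothalamic spots were set against all other spots of the same sections (7207 spots), against 200 thalamic spots per section chosen by Tcf7l2, Rora, Prkcd, Ramp3 and Tnnt1, and against 200 striatal spots per section chosen by 5 striatal genes, among them Ppp1r1b, Rgs9, Adora2a and Penk; all groups share the wild-type genotype, and the labels name no treatment. The series also holds single cells picked from the anterior thalamic nuclei, which were not analysed here.

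The hypothalamus is a ventral forebrain region whose neurons control the pituitary, body temperature, feeding, thirst, reproduction and the daily rhythm, largely through secreted peptides packed in dense-core vesicles. Magnocellular neurons of its paraventricular and supraoptic nuclei send oxytocin and vasopressin to the posterior pituitary, while parvocellular neurons release hormones such as thyrotropin-releasing hormone that act on the anterior pituitary. Several imprinted genes, read from the maternal or the paternal copy alone, are known for strong expression in this region.

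The 5 selecting genes are given as a description. Hap1, which encodes the huntingtin-associated protein of the stigmoid bodies, stood in the hypothalamic spots at 534 and 668 CPM (counts per 1000000 of the summed spots) in posterior sections 2 and 6 and at 727 CPM in anterior section 5, against 63.4, 73.9 and 78.1 CPM in the other spots of the same sections. Baiap3, a regulator of dense-core vesicle traffic, stood at 259, 317 and 351 CPM against 11.3, 16.0 and 14.4 CPM in the other spots. Resp18, an endocrine secretory-pathway protein, was at 924, 808 and 902 CPM against 151, 147 and 128 CPM in the other spots. The paternally expressed Peg3 was at 642, 827 and 844 CPM against 197, 203 and 222 CPM, and the paternally expressed Nap1l5 at 1893, 1764 and 1861 CPM against 492, 449 and 457 CPM in the other spots. The score fell off without a gap at the border of the set. The spot at rank 200 scored 1.7455 in posterior section 2, 1.7465 in posterior section 6 and 1.7822 in anterior section 5, and the spot at rank 201 scored 1.745, 1.7431 and 1.7795, so spots on both sides of the border were nearly alike.

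The summed hypothalamic spots held 1855232 counts in posterior section 2, 1386818 in posterior section 6 and 1034938 in anterior section 5. Their median total per spot was 9023, 6734 and 5167.5 counts, against 9008, 7310 and 5356 counts in the other spots. Mitochondrial genes took 10.3%, 7.5% and 9.47% of the hypothalamic spots' counts and 12.4%, 9.24% and 10.7% of the other spots' counts. Between the hypothalamic spots of different sections 1 barcode was shared, in 1 of the 3 pairs of sections. A spot is a small region that can hold several cells, so fewer cells of a type and less RNA per cell cannot be told apart in any value below.

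Oxytocin, vasopressin and thyrotropin-releasing hormone genes were among the peptide genes that rose in the hypothalamic spots relative to the other spots. Of 33 listed hypothalamic peptide genes 26 passed the filter on low counts; 18 rose in the hypothalamic spots, 5 fell and 3 did not pass the test, with a median log2 fold change of 1.69. Over all 14196 genes tested 18.1% were called higher and 19.2% lower, with a median of 0.01 (edgeR's quasi-likelihood test with the section as a block, Benjamini-Hochberg adjusted p under 0.05). Because the spots were chosen on 5 genes, any gene that varies with those 5 over the sections differs in this contrast. With each count split at random, so that 1 part chose the spots and the other was tested, 1792 genes were called higher and 2032 lower.

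Oxt, the oxytocin gene, stood at 590 CPM in posterior section 2, 9360 CPM in posterior section 6 and 4205 CPM in anterior section 5, against 8.11, 193 and 100 CPM in the other spots. Its log2 fold change was 5.62 ± 0.10 (SE; adjusted p = 1.61e-23). Avp, the vasopressin gene, stood at 62.0, 2067 and 857 CPM against 6.66, 109 and 63.8 CPM in the other spots, with a log2 fold change of 3.84 ± 0.11 (SE; adjusted p = 3.02e-19). In each section the hypothalamic spots were higher for both hormones, and in both sets of spots posterior section 2 had the lowest level and posterior section 6 the highest. The other spots of posterior section 6 held more Avp than the hypothalamic spots of posterior section 2, so for Avp the 2 groups overlap when sections are not paired. Trh, the gene of thyrotropin-releasing hormone, was far more even, at 246, 198 and 273 CPM in the hypothalamic spots against 5.54, 10.4 and 7.61 CPM in the other spots, a log2 fold change of 4.91 ± 0.14 (SE; adjusted p = 5.93e-20). How reads of the near-identical exon of Oxt and Avp were assigned is not given in the sources used here, so a part of the Avp count in spots with much Oxt is uncertain.

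Promoters of 6 of these peptide and vesicle genes are printed because the genes rose together in the hypothalamic spots while their upstream letters differ. The windows hold the 250 bases before the RefSeq start of the gene, read 5′ to 3′ on the strand of the gene (build GRCm38.p6), with capitals for TGACCT, the half-site bound by several nuclear receptors, or for TGACGTCA, the cAMP response element. The windows are Oxt at chr2:130575919-130576168 on the plus strand, Avp at chr2:130582589-130582838 on the minus strand, Trh at chr6:92244651-92244900 on the minus strand, Sst (somatostatin) at chr16:23890845-23891094 on the minus strand, Scg2 (secretogranin II, a vesicle matrix protein) at chr1:79440027-79440276 on the minus strand, and Pcsk1 (prohormone convertase 1) at chr13:75089607-75089856 on the plus strand.
Oxt: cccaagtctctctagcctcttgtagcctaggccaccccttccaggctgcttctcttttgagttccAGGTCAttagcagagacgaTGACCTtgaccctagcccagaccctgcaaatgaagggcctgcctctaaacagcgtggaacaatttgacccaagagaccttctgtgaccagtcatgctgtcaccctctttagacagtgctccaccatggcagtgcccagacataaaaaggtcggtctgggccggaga
Avp: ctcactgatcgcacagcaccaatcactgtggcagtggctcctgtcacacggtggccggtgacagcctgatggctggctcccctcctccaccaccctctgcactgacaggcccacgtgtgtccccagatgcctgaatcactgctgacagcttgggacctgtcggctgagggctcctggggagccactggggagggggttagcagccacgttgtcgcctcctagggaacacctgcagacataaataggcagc
Trh: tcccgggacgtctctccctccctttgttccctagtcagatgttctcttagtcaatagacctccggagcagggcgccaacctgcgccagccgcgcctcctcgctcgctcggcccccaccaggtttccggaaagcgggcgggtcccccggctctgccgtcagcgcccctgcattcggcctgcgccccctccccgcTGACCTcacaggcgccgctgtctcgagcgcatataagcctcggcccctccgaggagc
Sst: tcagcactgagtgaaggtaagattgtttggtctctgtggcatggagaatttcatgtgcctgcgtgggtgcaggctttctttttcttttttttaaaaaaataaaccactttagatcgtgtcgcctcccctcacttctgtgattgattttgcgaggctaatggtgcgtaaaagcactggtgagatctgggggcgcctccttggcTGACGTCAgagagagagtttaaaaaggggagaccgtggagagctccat
Scg2: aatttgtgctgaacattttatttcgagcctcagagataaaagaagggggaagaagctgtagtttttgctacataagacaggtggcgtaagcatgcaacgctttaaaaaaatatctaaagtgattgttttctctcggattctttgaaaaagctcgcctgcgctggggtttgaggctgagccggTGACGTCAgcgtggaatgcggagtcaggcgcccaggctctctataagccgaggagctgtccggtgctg
Pcsk1: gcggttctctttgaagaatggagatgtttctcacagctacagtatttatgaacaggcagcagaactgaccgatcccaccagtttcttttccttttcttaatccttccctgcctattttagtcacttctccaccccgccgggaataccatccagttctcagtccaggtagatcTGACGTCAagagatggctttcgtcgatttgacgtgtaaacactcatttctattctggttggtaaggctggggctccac
Oxt and Avp lie next to each other on chromosome 2 and are transcribed towards each other. The Oxt window held TGACCT at 2 places, 185 bases before the start on the other strand and 166 bases before the start on the strand of the gene; the Trh window held it 57 bases before the start; the Avp window held none. TGACGTCA lay 48 bases before the start of Sst, 68 bases before that of Scg2 and 78 bases before that of Pcsk1. Both motifs were searched on both strands, and no place matches both.

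Over all 32851 promoter windows of the RefSeq set, a share of 14% held TGACCT and 1.55% held TGACGTCA. Among the 10728 genes tested that matched the table by symbol, of 14196, the shares were 12.9% and 3.09%. Of the 18 peptide genes that rose, 15 had a window: 4 held TGACCT (Oxt, Trh, Ghrh and Pomc) and 2 held TGACGTCA (Sst and Cartpt). Of the 13 genes of peptide processing that rose, 10 had a window and 2 held TGACGTCA (Scg2 and Pcsk1), as did 1 of the 2 windows among the 4 that fell (Chgb). These letters describe the windows and say nothing of whether a factor binds there.

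Further peptide genes that rose covered feeding, stress and reproduction. Gal, which encodes galanin, had 86.8, 30.3 and 72.5 CPM in the hypothalamic spots of posterior sections 2 and 6 and anterior section 5, against 5.38, 3.14 and 3.77 CPM in the other spots (log2 fold change 3.86 ± 0.17, SE; adjusted p = 6.08e-16). Tac2, the neurokinin B gene, had 103, 63.5 and 137 CPM against 11.8, 24.7 and 15.6 CPM in the other spots (log2 2.52 ± 0.20, SE; adjusted p = 8.43e-11). Cartpt, a feeding-related peptide gene, had 96.5, 36.8 and 69.6 CPM against 22.3, 19.7 and 21.6 CPM in the other spots (log2 1.64 ± 0.15, SE; adjusted p = 2.67e-09). For these 3 genes every hypothalamic value was above every value of the other spots, and posterior section 6 had the lowest of the 3 hypothalamic levels each time. Nts, the neurotensin gene, stood at 86.8, 28.8 and 28.0 CPM against 13.7, 10.1 and 10.8 CPM in the other spots, a log2 difference of 2.05, and of 1.41 without posterior section 2. Sst rose less, with 441, 395 and 631 CPM in the hypothalamic spots against 238, 354 and 340 CPM in the other spots (log2 0.61 ± 0.09, SE; adjusted p = 4.58e-06). Crh, the corticotropin-releasing hormone gene, had 21.0, 18.7 and 19.3 CPM against 10.3, 8.43 and 8.00 CPM in the other spots, a log2 difference of 1.09, and did not overlap between the groups. Some of the rare peptide genes that rose rest on few spots. Gnrh1, the gene of gonadotropin-releasing hormone, had 30 counts in 5 hypothalamic spots of posterior section 6, with up to 24 in 1 spot. In anterior section 5 its 18 counts came from 5 spots, with up to 7 in 1 spot. In posterior section 2 its 8 counts lay in 8 spots.

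Of the 26 tested peptide genes 5 fell, a share near the 19.2% called lower over all genes. Those that fell are abundant in cortex, hippocampus or striatum. Npy had 27.0, 17.3 and 19.3 CPM in the hypothalamic spots against 134, 154 and 169 CPM in the other spots (log2 -2.81 ± 0.13, SE; adjusted p = 2.11e-15), and Cck had 108, 66.3 and 63.8 CPM against 611, 610 and 488 CPM in the other spots (log2 -2.87). Penk, the enkephalin gene, was at 151, 172 and 129 CPM against 410, 418 and 395 CPM in the other spots, a log2 difference of -1.48. Pdyn (dynorphin) fell by 0.94 on the log2 scale. Tac1, the substance P gene, fell by 0.47 on the log2 scale (adjusted p = 0.00376), but it had 57.1, 87.3 and 80.2 CPM in the hypothalamic spots against 109, 83.9 and 102 CPM in the other spots, was not lower in posterior section 6, and had an adjusted p of 0.358 without posterior section 2. Vip, the gene of vasoactive intestinal peptide, did not pass: it had 3.77, 46.9 and 1.93 CPM against 32.6, 28.3 and 31.1 CPM in the other spots. Without posterior section 6 its log2 difference was -3.41 (adjusted p = 4.58e-08), so that section alone decides the call. Hcrt, Kiss1, Agrp, Nmu, Qrfp, Npvf and Ucn, peptide genes of lateral, arcuate or dorsomedial neurons among others, had too few counts to be tested.

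**Figure D1:**
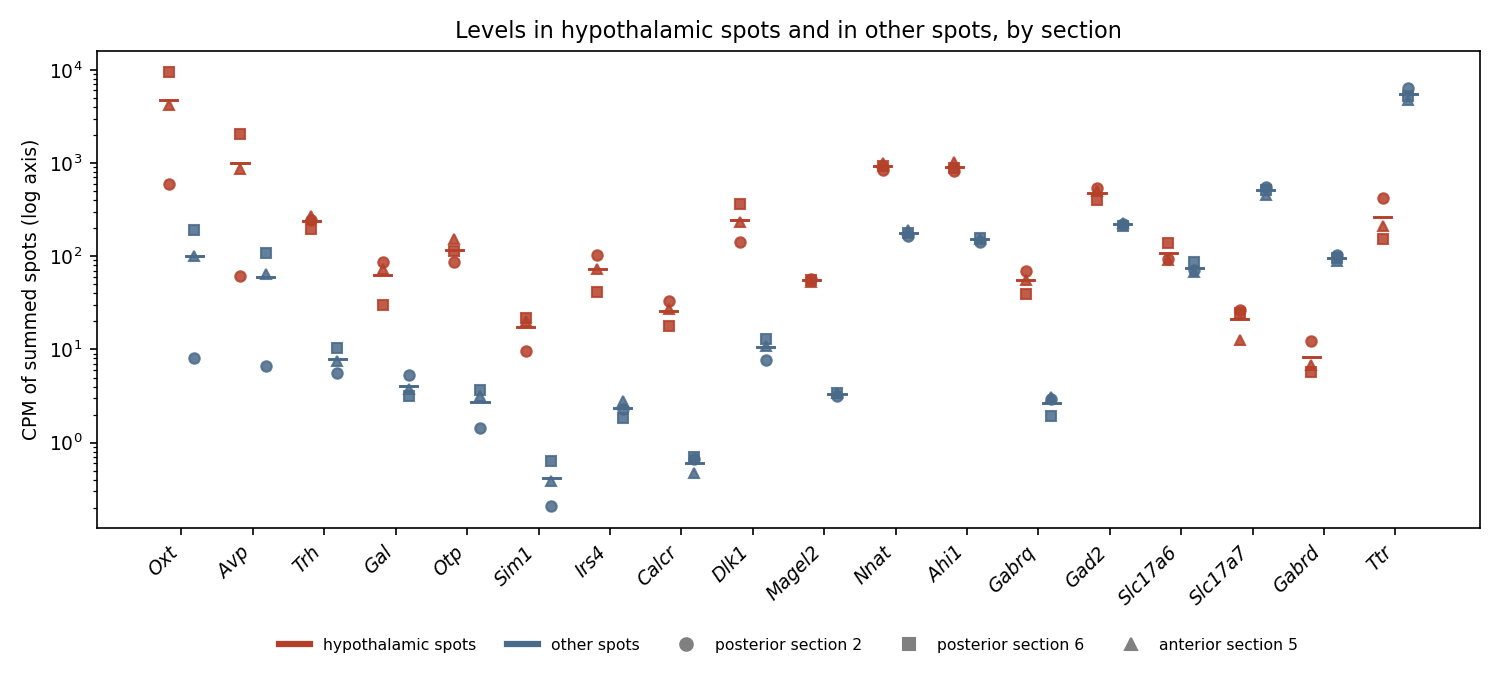
CPM of 18 genes (log axis) in hypothalamic spots and in other spots, with 1 point per set and section. Oxt spread between 590 and 9360 CPM over the hypothalamic spots of the 3 sections while Trh stayed between 198 and 273 CPM, and Slc17a7, Gabrd and Ttr were lower than in the other spots in each section.

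Scg2 and Pcsk1 were among the genes of peptide processing and storage that rose. Of 24 listed genes 23 were tested: 13 rose, 4 fell and 6 did not pass, with a median log2 fold change of 0.29; the share that fell was near the 19.2% called lower over all genes. Scg2 had 671, 922 and 670 CPM in the hypothalamic spots against 211, 203 and 201 CPM in the other spots (log2 1.82 ± 0.08, SE; adjusted p = 9.85e-16). Pcsk1, the convertase that cuts prohormones early in the pathway, had 13.5, 20.9 and 17.4 CPM against 4.63, 4.01 and 3.53 CPM (log2 1.99 ± 0.25, SE; adjusted p = 4.94e-07). The other convertase of neurons went the opposite way. Pcsk2 had 130, 143 and 128 CPM in the hypothalamic spots against 276, 263 and 242 CPM in the other spots (log2 -1.01 ± 0.08, SE; adjusted p = 5.34e-11). Rab27b, a small GTPase of vesicle docking, rose by 1.15 on the log2 scale and Qpct, which caps peptides such as TRH with pyroglutamate, by 1.29. Pam, the peptide-amidating enzyme that gives oxytocin and vasopressin their C-terminal amide, rose by 0.69. Syt7, a calcium sensor, fell by 1.12, Chgb (chromogranin B) fell by 0.59 and Cpe (carboxypeptidase E) fell by 0.31 on the log2 scale, with an adjusted p of 0.0644 without the section as a block.

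Transcription factors of hypothalamic neurons were checked next, since they mark lineage rather than secretion. Of 37 listed genes 23 were tested: 14 rose, 1 fell and 8 did not pass, with a median log2 fold change of 0.80. Over all genes tested 18.1% were called higher and 19.2% lower. Otp, a homeobox gene needed for neuroendocrine neurons of the paraventricular and supraoptic nuclei, had 85.7, 112 and 153 CPM in the hypothalamic spots against 1.45, 3.66 and 3.14 CPM in the other spots (log2 5.39 ± 0.15, SE; adjusted p = 1.34e-19). Sim1, required for the same neurons, had 9.70, 21.6 and 20.3 CPM against 0.207, 0.640 and 0.392 CPM (log2 5.29 ± 0.38, SE; adjusted p = 1.18e-11). Both genes stayed under 4 CPM outside the hypothalamic spots in each of the 3 sections. Dlx1, a homeobox gene of GABA neurons, had 43.7, 33.2 and 60.9 CPM against 10.0, 9.42 and 11.3 CPM in the other spots (log2 2.09 ± 0.15, SE; adjusted p = 2.40e-11). Six6, a homeobox gene of the suprachiasmatic nucleus, was uneven, with 1.08, 33.2 and 8.70 CPM against 0.0827, 0.233 and 0.471 CPM (log2 5.65, and 6.47 without anterior section 5). Isl1 rose by 1.75, Zic1 by 1.09 and Six3 by 1.01 on the log2 scale. Meis2, a striatal and olfactory homeobox gene, fell by 1.67. Nkx2-1, which patterns the ventral hypothalamus, did not pass, with 5.93, 1.44 and 6.76 CPM in the hypothalamic spots against 4.96, 4.42 and 5.02 CPM in the other spots (log2 -0.09 ± 0.37, SE; adjusted p = 0.877), although with 300 spots per section it rose by 0.76 on the log2 scale (adjusted p = 0.0251). The ventromedial gene Nr5a1 and the tanycyte gene Rax had too few counts to be tested. Fezf1, a transcription factor gene of the ventromedial nucleus, rose, with 8.62, 14.4 and 24.2 CPM against 0.538, 1.22 and 0.784 CPM (log2 4.06), as did the arcuate peptide genes Ghrh and Pomc. Markers of the paraventricular and supraoptic region and some markers of the ventral hypothalamus were thus higher in the chosen spots.

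Imprinted genes were a further list, and 2 of the 5 selecting genes, Peg3 and Nap1l5, are imprinted themselves. Of 52 listed genes 41 were tested: 26 rose, 4 fell and 11 did not pass, with a median log2 fold change of 0.64. The shares over all genes tested were 18.1% called higher and 19.2% called lower. Members of the Ndn and Magel2 pair, the neighbours lost in Prader-Willi syndrome, both rose: Ndn had 731, 712 and 855 CPM in the hypothalamic spots against 180, 197 and 168 CPM in the other spots (log2 2.03 ± 0.07, SE; adjusted p = 8.95e-18). Magel2 had 57.1, 56.2 and 53.1 CPM against 3.14, 3.37 and 3.37 CPM in the other spots (log2 4.04 ± 0.17, SE; adjusted p = 1.99e-16). Magel2 was thus nearly equal in the 3 sections within each set of spots. Nnat (neuronatin) had 842, 939 and 1001 CPM against 164, 177 and 193 CPM (log2 2.34), and Blcap, in whose intron Nnat lies, rose by 1.20. Dlk1, a transmembrane relative of Notch ligands, had 142, 364 and 232 CPM against 7.61, 13.1 and 10.8 CPM in the other spots (log2 4.47 ± 0.10, SE; adjusted p = 2.71e-21), and the noncoding Meg3 of the same cluster rose by 0.64.

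In the Peg10 neighbourhood the members differed. Peg10, a retrotransposon-derived gene, had 62.0, 90.9 and 114 CPM in the hypothalamic spots against 4.72, 8.37 and 11.8 CPM in the other spots (log2 3.42). Asb4, a gene of feeding-related hypothalamic neurons, had 29.1, 13 and 23.2 CPM against 0.951, 1.34 and 1.26 CPM (log2 4.19), and Calcr, the calcitonin receptor, had 33.4, 18.0 and 27.1 CPM against 0.662, 0.698 and 0.471 CPM (log2 5.34 ± 0.31, SE; adjusted p = 1.64e-13). Sgce, the direct neighbour of Peg10, did not pass (log2 0.22, adjusted p = 0.229), and Ppp1r9a fell by 0.45 on the log2 scale. Usp29 and Zim1, which neighbour the selecting gene Peg3, rose by 1.88 and 3.17, while Herc3, which holds the selecting gene Nap1l5 in an intron, fell by 0.63. Igf2, a growth factor of meninges and choroid plexus in the adult brain, had 22.1, 13.7 and 14.5 CPM against 87.9, 76.2 and 115 CPM in the other spots (log2 -2.42), and Cdkn1c fell by 2.23. Snrpn, an abundant imprinted gene of the Prader-Willi region, did not pass (log2 0.01). With spots chosen without Peg3 and Nap1l5 531 of the 600 spots stayed in the set, and 2558 genes rose and 2692 fell.

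Receptor genes were split by the signal they read. Of 20 listed receptors and signalling genes for steroid and metabolic hormones 17 were tested: 10 rose, 6 fell and 1 did not pass (median log2 0.50). Over all genes tested 18.1% were called higher and 19.2% lower. Irs4, an insulin receptor substrate known from the hypothalamus, had 104, 41.1 and 73.4 CPM in the hypothalamic spots against 2.32, 1.86 and 2.82 CPM in the other spots (log2 4.96 ± 0.18, SE; adjusted p = 2.21e-17). Esr1, the estrogen receptor alpha gene, had 11.9, 8.65 and 7.73 CPM against 1.86, 1.45 and 1.02 CPM (log2 2.64 ± 0.35, SE; adjusted p = 9.14e-07). Prlr (prolactin receptor) rose by 1.06 on the log2 scale. The melanocortin receptor genes Mc3r and Mc4r rose by 1.89 and 1.70, at levels under 5 CPM in the hypothalamic spots of each section; with split counts neither passed (adjusted p = 0.0821 and 0.402). Lepr, the leptin receptor gene, fell: it had 0.539, 0 and 0.966 CPM in the hypothalamic spots against 3.35, 2.5 and 3.37 CPM in the other spots, though with DESeq2 the adjusted p was 0.0798 and with 100 spots per section 0.0548. The glucocorticoid and mineralocorticoid receptor genes Nr3c1 and Nr3c2 were also called lower, but with DESeq2 their adjusted p was 0.155 and 0.0572, and without posterior section 6 it was 0.231 and 0.0594.

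Of 33 listed peptide receptors 27 were tested: 14 rose, 6 fell and 7 did not pass (median log2 0.59). Over all genes tested 18.1% were called higher and 19.2% lower, so the share that fell here was near that of all genes. Gpr101, an orphan receptor gene of the hypothalamus, had 89.5, 61.3 and 84.1 CPM in the hypothalamic spots against 4.88, 4.25 and 4.71 CPM in the other spots (log2 4.04 ± 0.14, SE; adjusted p = 8.77e-18). Trhr, the receptor gene for thyrotropin-releasing hormone, had 14, 7.93 and 14.5 CPM against 1.78, 1.05 and 1.10 CPM (log2 3.10), so ligand and receptor genes of this pair both rose. Adcyap1r1, the receptor gene for PACAP, rose by 1.12 ± 0.08 on the log2 scale (SE; adjusted p = 5.11e-12), and its ligand gene Adcyap1 rose by 1.74. The pair of oxytocin and its receptor gave no such picture. Oxtr had 3.23, 3.61 and 2.90 CPM in the hypothalamic spots against 6.54, 4.42 and 4.63 CPM in the other spots and did not pass (log2 -0.75 ± 0.38, SE; adjusted p = 0.130), while the vasopressin receptor gene Avpr1a rose by 2.45 (adjusted p = 0.136 with split counts). Vipr2, the VIP receptor gene of the suprachiasmatic nucleus, had 1.62, 26.7 and 7.73 CPM against 1.03, 2.09 and 1.65 CPM (log2 2.71, but 1.53 with an adjusted p of 0.0552 without posterior section 6), and Vipr1, a cortical VIP receptor gene, fell by 3.30. Crhr1, a receptor gene for corticotropin-releasing hormone, fell by 1.89.

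Genes of GABA neurons and of glutamate neurons were both present in the hypothalamic spots. Of 19 GABA genes, all tested, 10 rose, 4 fell and 5 did not pass (median log2 0.18). Over all genes 18.1% were called higher and 19.2% lower, and the share of this list that fell was near the latter. Gad2, which makes GABA at terminals, had 535, 403 and 496 CPM in the hypothalamic spots against 222, 212 and 228 CPM in the other spots (log2 1.07 ± 0.07, SE; adjusted p = 1.96e-12). Gad1, the other GABA-making enzyme, did not pass, with 336, 333 and 339 CPM against 328, 344 and 333 CPM (log2 -0.04, adjusted p = 0.677). Slc32a1, the vesicular GABA transporter gene, rose by 0.52. Slc6a11, a GABA transporter gene of astrocytes, had 290, 249 and 310 CPM against 92.8, 104 and 103 CPM in the other spots (log2 1.46 ± 0.07, SE; adjusted p = 1.51e-14).

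The receptor subunits of this list split. The rare subunits Gabrq (theta) and Gabre (epsilon) rose: Gabrq had 69.5, 39.7 and 56.0 CPM in the hypothalamic spots against 2.94, 1.92 and 3.06 CPM in the other spots (log2 4.36 ± 0.18, SE; adjusted p = 1.38e-16), and Gabre had 22.6, 12.3 and 15.5 CPM against 1.16, 0.814 and 0.706 CPM (log2 4.16). Gabrg1 (gamma 1) rose by 1.83. Gabrd, the delta subunit gene of extrasynaptic receptors in thalamus, striatum and dentate gyrus, had 12.4, 5.77 and 6.76 CPM against 104, 96.0 and 88.5 CPM in the other spots (log2 -3.50 ± 0.16, SE; adjusted p = 2.22e-15). Gabra4 (alpha 4) fell by 1.64 on the log2 scale.

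Of 14 listed glutamate, monoamine and acetylcholine genes 10 were tested: 5 rose, 2 fell and 3 did not pass. The share that fell was near the 19.2% called lower over all genes, of which 18.1% were called higher. Slc17a6, the glutamate transporter gene of subcortical neurons, had 94.3, 140 and 90.8 CPM in the hypothalamic spots against 71.4, 87.1 and 67.1 CPM in the other spots (log2 0.48 ± 0.09, SE; adjusted p = 0.000119), and did not pass with 100 spots per section (adjusted p = 0.206). Slc17a7, its cortical counterpart, had 26.4, 24.5 and 12.6 CPM against 552, 516 and 454 CPM (log2 -4.57 ± 0.11, SE; adjusted p = 9.36e-21). Th, the tyrosine hydroxylase gene of dopamine neurons, had 22.6, 26.7 and 10.6 CPM against 4.63, 4.25 and 4.55 CPM (log2 2.16), and Slc18a2, which loads monoamines into vesicles, rose by 2.32. Ddc, which makes dopamine and serotonin and is also an imprinted neighbour of Grb10, rose by 2.28. Hdc, the histamine-making enzyme, rose by 1.14 (0.69 with an adjusted p of 0.226 without posterior section 2). The cholinergic genes Chat, Slc18a3 and Slc5a7 did not pass.

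Genes of proteins that bind HAP1 were counted because Hap1 led the selection. Of 9 listed genes, all tested, 4 rose, 2 fell and 3 did not pass (median log2 0.15). Here too the share that fell was near the 19.2% called lower over all genes, of which 18.1% were called higher. Ahi1, whose product forms a stable complex with HAP1 and which is mutated in Joubert syndrome, had 826, 885 and 1026 CPM in the hypothalamic spots against 143, 157 and 154 CPM in the other spots (log2 2.54 ± 0.07, SE; adjusted p = 1.91e-20). Htt, the huntingtin gene, did not pass (log2 -0.10, adjusted p = 0.429). Itpr1, an inositol trisphosphate receptor gene, had 57.1, 46.9 and 64.7 CPM against 282, 232 and 256 CPM (log2 -2.26), and the sorting receptor gene Sort1 fell by 1.32. Genes outside the lists with large rises were Arhgap36, a GTPase-activating protein gene, with 131, 54.8 and 102 CPM against 4.18, 3.95 and 3.84 CPM in the other spots (log2 4.54), AW551984 (log2 4.29), Ngb, the neuroglobin gene, with 152, 88.0 and 126 CPM against 6.41, 5.76 and 6.43 CPM (log2 4.26 ± 0.13, SE; adjusted p = 5.12e-19), and Sytl4, a granule-docking protein gene, with 24.8, 6.49 and 29.95 CPM against 1.03, 0.872 and 1.26 CPM (log2 4.17).

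**Figure D2:**
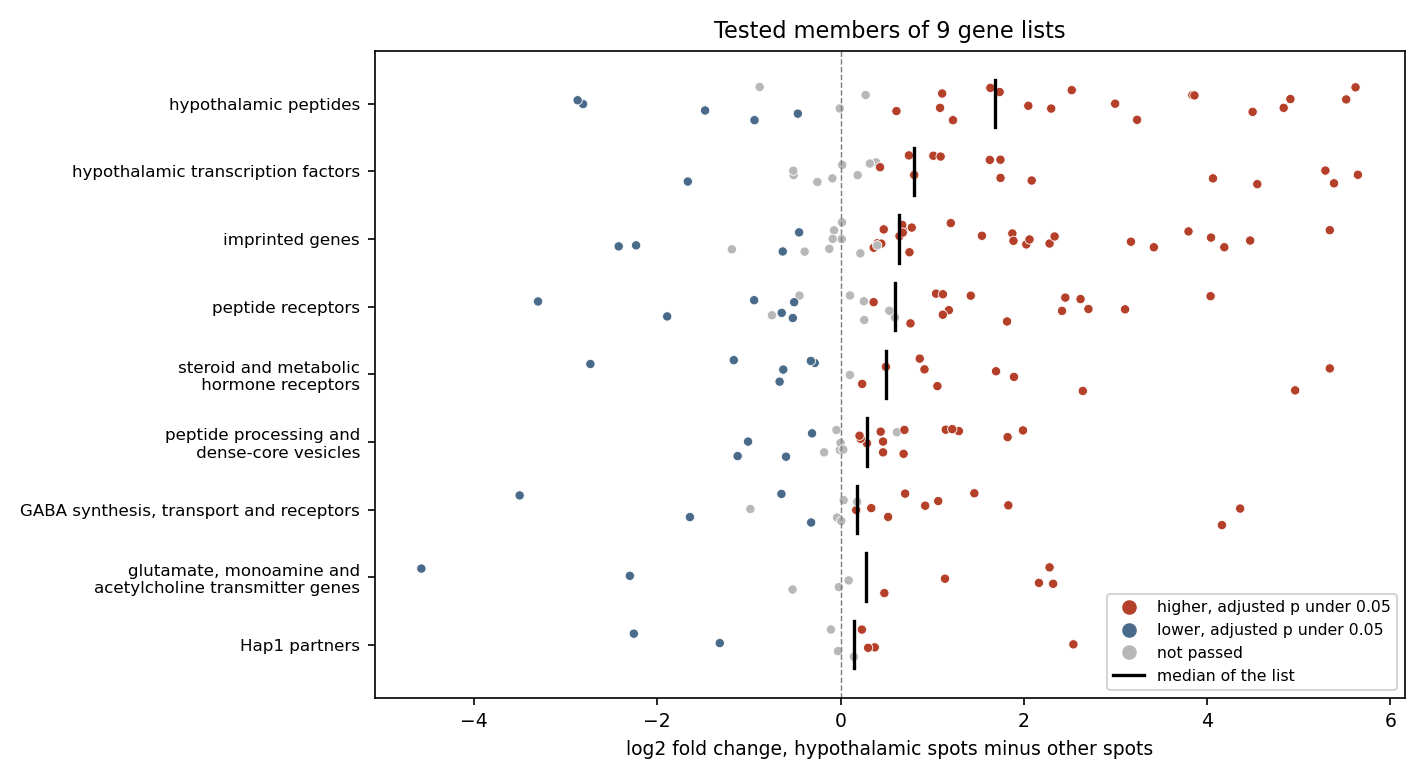
Log2 fold change, hypothalamic spots minus other spots, of each tested member of 9 gene lists, with 1 point per gene. The peptide list (median 1.69) and the transcription factor list (median 0.80) reach above 5 and the Hap1 partners (median 0.15) spread on both sides of 0.

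Among the genes that fell were markers of regions and cell types outside the hypothalamus. Neurod6 and Neurod2, transcription factors of cortical and hippocampal excitatory neurons, had between 0 and 2.16 CPM in the hypothalamic spots and between 33.7 and 64.0 CPM in the other spots. All 12 listed markers of cortex and hippocampus fell, as did all 9 tested markers of striatum, all 6 of choroid plexus and all 9 of oligodendrocytes; of 12 thalamic markers 11 fell and Slc17a6 rose. Ttr, the transthyretin gene of choroid plexus, had 423, 154 and 209 CPM against 6385, 5185 and 4760 CPM in the other spots (log2 -4.49 ± 0.12, SE; adjusted p = 3.70e-20).

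The markers of other cell types in the hypothalamic spots were not at 0. Their calls are to be read beside the 18.1% called higher and 19.2% called lower over all genes. The 9 oligodendrocyte markers summed to 4906, 4370 and 4642 CPM against 8609, 9142 and 9252 CPM in the other spots, and the 8 astrocyte markers to 1869, 1565 and 1927 CPM against 2156, 1909 and 2353 CPM. Of the astrocyte markers 2 rose, 3 fell and 3 did not pass; Agt, the angiotensinogen gene of astrocytes in ventral forebrain and brainstem, had 297, 231 and 268 CPM against 58.8, 68.9 and 62.3 CPM (log2 2.03 ± 0.09, SE; adjusted p = 2.52e-16). Of 9 tested ependymal and tanycyte markers 6 rose, 2 fell and 1 did not pass, with sums of 226, 159 and 169 CPM against 155, 135 and 124 CPM. Ccdc153, an ependymal cilium gene, had 42.6, 33.9 and 30.9 CPM against 16.9, 13.1 and 11.3 CPM (log2 1.33). Of 9 markers of bed nucleus, septum and medial amygdala, regions that border the hypothalamus, 5 rose (Zic1, Zic2, Trpc4, Dgkk and Dlk1) and none fell. Cyp26b1, Lhx6, Lhx8 and Prdm16 did not pass. The 9 summed to 423, 561 and 532 CPM against 136, 128 and 128 CPM in the other spots. Dlk1 alone held 142, 364 and 232 CPM of these sums. Dlk1 and Zic1 were also counted above in the imprinted and transcription factor lists, so the sums are no separate sign of bordering regions. Of the 5 that rose, Zic2 had an adjusted p of 0.344 without posterior section 6 and of 0.182 without the section as a block, and Trpc4 one of 0.232 without posterior section 2. Of 5 markers of the reticular thalamus 2 rose and 3 fell, of 4 tested habenular markers 1 rose and 1 fell, and none of 6 cholinergic markers passed. No marker of microglia, endothelial cells or meningeal fibroblasts rose, and 5 of 7, 5 of 6 and 6 of 7 fell. Among the endothelial genes Cldn5 had an adjusted p of 0.0644 with DESeq2, Itm2a one of 0.0863 with DESeq2 and 0.206 without posterior section 2, and Ly6c1 one of 0.0742 with split counts and 0.132 without posterior section 6. The part of these cell types in the results above was not tested.

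Levels were then read along the rank of the score in each section, as a description. In posterior section 2, Otp stood at 115, 84.1, 88.6 and 52.0 CPM in the spots at ranks 1 to 50, 51 to 100, 101 to 150 and 151 to 200, at 10.7 CPM in ranks 201 to 400 and at 0.672 CPM in the spots below rank 400. In posterior section 6 the same ranks gave 139, 151, 101, 54.4, 37.0 and 0.820 CPM, and in anterior section 5 they gave 180, 198, 115, 114, 27.7 and 0.857 CPM. Otp thus fell off past rank 200 yet was still present in the next 200 spots of each section. Ahi1 declined less steeply. In posterior section 6 it stood at 1149, 880, 745 and 735 CPM in the 4 bins of the set, at 488 CPM in ranks 201 to 400 and at 129 CPM below. Oxt followed no such order in posterior section 2, with 296, 841, 230 and 1009 CPM in the 4 bins and 56.4 CPM in the next 200 spots. In posterior section 6 it stood at 15429, 9056, 8824 and 3339 CPM and at 1743 CPM in the next 200 spots.

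**Figure D3:**
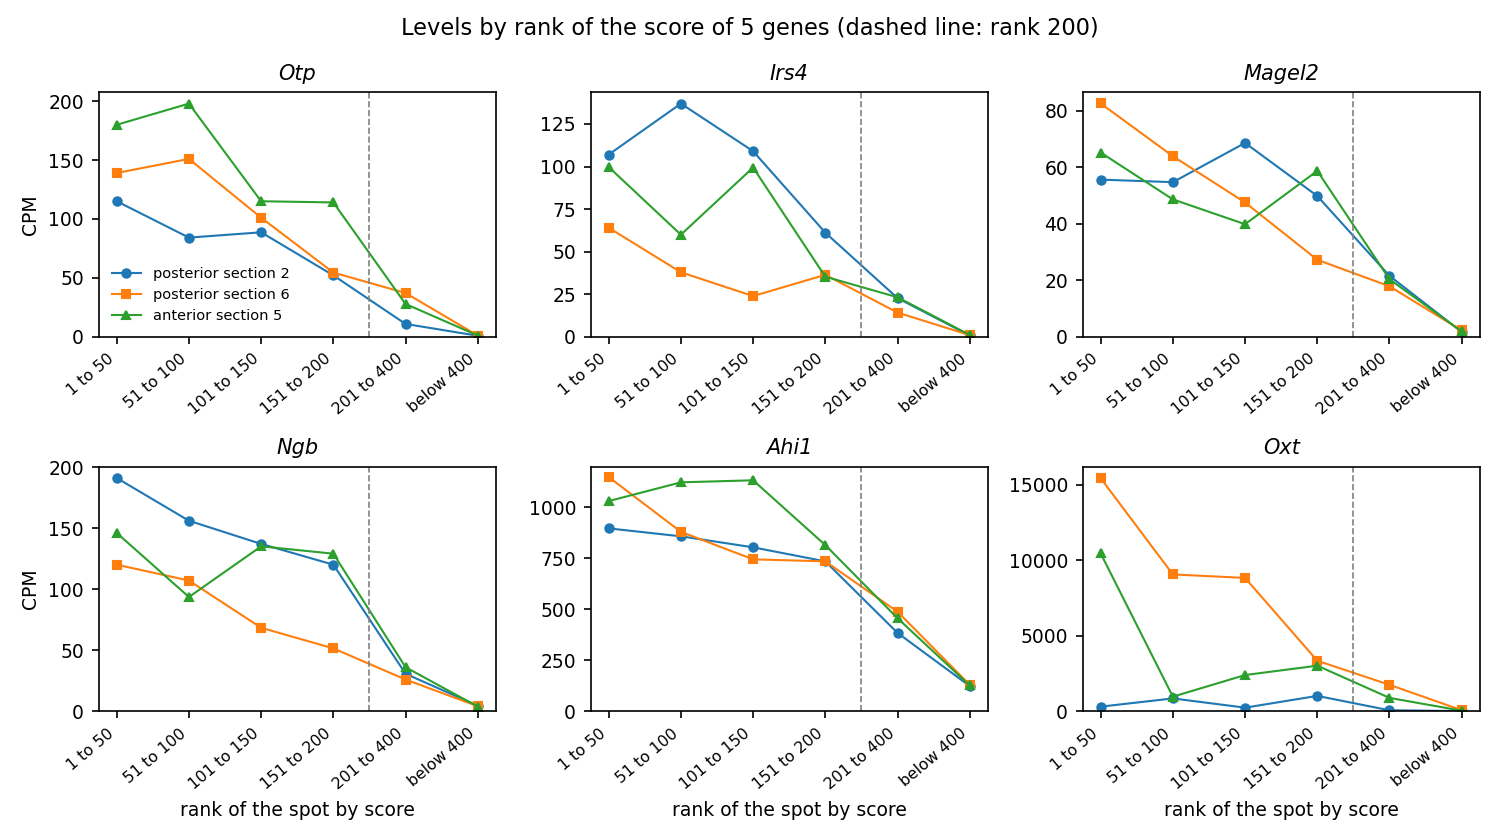
CPM of 6 genes in bins of spots ranked by the score of 5 genes, with 1 line per section and a dashed line at rank 200. Otp, Irs4, Magel2, Ngb and Ahi1 are lowest below rank 400, and Oxt reaches 15429 CPM in the first 50 spots of posterior section 6.

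The hypothalamic spots shared 5 of their 600 spots with the thalamic spots, and those were left out of both sets. Against the thalamic spots 13.3% of the 11037 genes tested were called higher and 14.9% lower. Of 23 tested peptide genes 17 rose, 2 fell and 4 did not pass (median log2 2.31), and of 19 tested transcription factors 13 rose, 2 fell and 4 did not pass (median log2 2.97). Otp had 86.8, 112 and 153 CPM in the hypothalamic spots of posterior sections 2 and 6 and anterior section 5 against 0.513, 0.776 and 2.12 CPM in the thalamic spots (log2 6.68). Cartpt had 97.8, 36.8 and 69.2 CPM against 2.57, 2.33 and 2.12 CPM in the thalamic spots (log2 4.84). Calcr and Sim1 had 115 and 69 counts over the hypothalamic spots and none over the thalamic spots; set against a floor of 3 counts over the 3 sections, Calcr was at least 37.9-fold and Sim1 at least 22.7-fold higher.

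The transmitter genes turned over between these 2 sets. Gad2 had 543, 403 and 498 CPM in the hypothalamic spots against 110, 62.9 and 118 CPM in the thalamic spots (log2 2.31 ± 0.11, SE; adjusted p = 6.99e-16), and Slc32a1 had 258, 176 and 248 CPM against 57.5, 28.7 and 46.7 CPM (log2 2.31). Slc17a6 had 78.0, 140 and 86.7 CPM in the hypothalamic spots against 510, 492 and 468 CPM in the thalamic spots (log2 -2.33 ± 0.12, SE; adjusted p = 4.91e-15). Shox2 and Gbx2, homeobox genes of thalamic relay neurons, were lower in the hypothalamic spots: Shox2 had 2.75, 4.33 and 1.95 CPM against 215, 282 and 299 CPM (log2 -6.38 ± 0.20, SE; adjusted p = 3.06e-20), and Gbx2 had 4.40, 4.33 and 3.90 CPM against 95.4, 90.8 and 79.6 CPM (log2 -4.40). Penk, which fell against all other spots, was higher than in the thalamic spots, with 153, 172 and 129 CPM against 55.4, 6.21 and 22.3 CPM (log2 2.31, but 3.48 without posterior section 2 and 1.72 without posterior section 6), and Zic1, which rose against all other spots, was lower, with 160, 125 and 177 CPM against 489, 414 and 402 CPM (log2 -1.55).

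Imprinted genes split in the thalamic comparison: of 39 tested 18 rose, 3 fell and 18 did not pass (median log2 0.33). The shares over all genes in this comparison were 13.3% called higher and 14.9% called lower. Ndn had 734, 712 and 859 CPM in the hypothalamic spots against 296, 218 and 222 CPM in the thalamic spots (log2 1.6), and Nnat rose by 2.10. Gnas, which encodes the stimulatory G protein alpha subunit, and Meg3 did not pass (log2 0.10 with adjusted p = 0.410, and log2 0.01 with adjusted p = 0.972). Ahi1 had 832, 886 and 1029 CPM against 179, 108 and 187 CPM in the thalamic spots (log2 2.51). Slc6a11 did not pass (log2 0.02, adjusted p = 0.924).

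Against the striatal spots 23.9% of the 11208 genes tested were called higher and 23.3% lower. No spot was in both sets. Of 22 tested peptide genes 17 rose, 3 fell and 2 did not pass (median log2 3.37). Over the 3 sections Otp, Irs4 and Calcr had 473, 326 and 115 counts in the hypothalamic spots and none in the striatal spots, which puts them at least 168-fold, 116-fold and 40.9-fold higher against a floor of 3 counts over the sections. Trh had 246, 198 and 273 CPM in the hypothalamic spots against 3.22, 3.25 and 1.72 CPM in the striatal spots (log2 6.22), and Dlk1 had 142, 364 and 232 CPM against 1.07, 0.651 and 2.58 CPM (log2 7.31, and 6.53 without posterior section 6). Tac1 had 57.1, 87.3 and 80.2 CPM in the hypothalamic spots against 480, 450 and 425 CPM in the striatal spots (log2 -2.74), and Pdyn fell by 2.65.

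The striatum is built mostly of GABA neurons, and the genes that make GABA were at similar or higher levels there. Gad2 did not pass, with 535, 403 and 496 CPM in the hypothalamic spots against 399, 416 and 368 CPM in the striatal spots (log2 0.15 ± 0.09, SE; adjusted p = 0.166). Gad1 fell, with 336, 333 and 339 CPM against 473, 454 and 433 CPM (log2 -0.55 ± 0.09, SE; adjusted p = 1.42e-07). Slc6a11 had 290, 249 and 310 CPM against 26.3, 35.8 and 23.2 CPM in the striatal spots (log2 3.17), and Agt had 297, 231 and 268 CPM against 6.43, 22.8 and 6.02 CPM (log2 4.37, and 5.35 without posterior section 6). The Dlx genes parted ways: Dlx1 had 43.7, 33.2 and 60.9 CPM in the hypothalamic spots against 1.07, 1.95 and 2.58 CPM in the striatal spots (log2 4.48), whereas Dlx5 had 11.9, 13.7 and 15.5 CPM against 27.3, 54.0 and 47.3 CPM (log2 -1.72). Meis2 had 35, 49.0 and 29.95 CPM against 409, 461 and 502 CPM (log2 -3.67), and Pde10a, a striatal phosphodiesterase gene, had 43.7, 36.8 and 33.8 CPM against 1418, 1302 and 1474 CPM (log2 -5.29).

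Of 38 tested imprinted genes 25 rose against the striatal spots, 1 fell and 12 did not pass (median log2 0.71). The shares over all genes in this comparison were 23.9% called higher and 23.3% called lower. Gnas had 2426, 2972 and 3138 CPM in the hypothalamic spots against 478, 545 and 610 CPM in the striatal spots (log2 2.27 ± 0.09, SE; adjusted p = 1.52e-37). Nnat had 842, 939 and 1001 CPM against 82.6, 80.7 and 83.4 CPM (log2 3.37). The 3 comparisons share the hypothalamic spots, so a gene that rose in several of them is not independent evidence.

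The hypothalamic spots were far from uniform. At least 1 Oxt count was found in 75, 160 and 119 of 200 hypothalamic spots in posterior sections 2 and 6 and anterior section 5 (37.5%, 80.0% and 59.5%), against 3.79%, 24.8% and 11.8% of the other spots. The 10 spots with the most Oxt held 79.5%, 57.4% and 79.6% of all Oxt counts of the hypothalamic spots, and the largest count in 1 spot was 334, 1348 and 763. Of all Oxt counts of a section 84.8%, 79.7% and 77.3% lay in its hypothalamic spots. Avp was as concentrated, with 86.1%, 62.1% and 80.8% of its counts in 10 spots. Trh and Otp were spread wider: the 10 spots with the most counts held 24.1%, 32.5% and 32.2% of Trh counts and 27.7%, 26.3% and 29.7% of Otp counts. Ahi1 was found in 99.5%, 99.0% and 97.0% of the hypothalamic spots.

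Over the hypothalamic spots of a section, Pearson's r of the log levels is given as a description; the spots of a section share 1 library and its depth. Oxt and Avp had an r of 0.337, 0.670 and 0.363 over the 200 spots of posterior sections 2 and 6 and anterior section 5, and Avp was the gene with the highest mean r to Oxt (0.457). Trh and Otp had an r of 0.413, 0.303 and 0.362. Gad2 and Slc17a6 ran against each other (mean r -0.219), as did Otp and Slc32a1 (mean r -0.247).

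Clustering of the 600 spots, with the section means taken out, gave 6 groups, which are described here by their leading genes. The positions of the spots were not used and a spot can hold several cells. A group is thus a set of spots with like expression, and whether it is a region or a mix of cell types was not tested. A group's leading genes follow from the clustering and are given as a description. Group 1 (193 spots; 60 in posterior section 2, 72 in posterior section 6 and 61 in anterior section 5) had Meis2 and Tac2 among its leading genes and held 255, 124 and 211 CPM of Tac2 in posterior sections 2 and 6 and anterior section 5, the highest of the 6 groups in each section. Group 2 had 143 spots (46, 48 and 49) and was led by Nts, Trh and Adcyap1 when the sections were pooled. It held 418, 431 and 506 CPM of Trh, again the highest in each section. In posterior section 6 Nts was higher in group 1 (58.5 against 31.7 CPM) and Adcyap1 in group 4 (80.3 against 60.2 CPM). In posterior section 2 Adcyap1 was higher in groups 3 and 6 (51.2 and 52.4 against 31.4 CPM). Group 3 (140 spots; 52, 43 and 45) was led by Oxt and Avp when the sections were pooled, and by haemoglobin genes of red blood cells. Its Oxt level was 592, 28120 and 17165 CPM and its Avp level 78.7, 6049 and 2990 CPM in the 3 sections, against 1641, 3812 and 664 CPM of Oxt and 121, 472 and 249 CPM of Avp in group 2. In posterior section 2 both hormone genes were thus higher in group 2 than in group 3. Group 3 also held 303, 204 and 365 CPM of Trh, and Oxt and Trh had a positive r over the spots of each section (0.294, 0.208 and 0.196).

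Group 4 had 89 spots, with 36 in posterior section 2, 16 in posterior section 6 and 37 in anterior section 5. It was led by Icam5, Nrgn and Pnoc, genes of forebrain neurons, and held 562, 321 and 692 CPM of Nrgn. In posterior section 6 group 1 held more (568 CPM). Nrgn is 1 of the 12 listed markers of cortex and hippocampus, and the other spots had 1997, 2189 and 2434 CPM. Whether the spots of group 4 lie in the hypothalamus was not tested. Group 5 (20 spots; 0, 15 and 5) was led by Vip, Six6, Rgs16 and Rorb, genes known from the suprachiasmatic nucleus, the circadian clock of the hypothalamus. Its Vip came from posterior section 6 alone, at 473 CPM, against 0 CPM in its 5 spots of anterior section 5. Six6 stood there at 266 CPM in posterior section 6 and 220 CPM in anterior section 5, and Scg2 at 3798 and 2021 CPM. Avp was at 2208 and 2065 CPM in group 5, below the 6049 and 2990 CPM of group 3 in the same sections, and Oxt at 550 and 439 CPM was lower still relative to group 3. Group 6 (15 spots; 6, 6 and 3) was led by the ependymal genes Ccdc153, Tmem212 and Foxj1, with 594, 536 and 896 CPM of Ccdc153, and its Oxt level was 1119, 30452 and 1624 CPM. Over the pooled sections Hap1 ranged between 512 CPM in group 1 and 898 CPM in group 5.

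**Figure D4:**
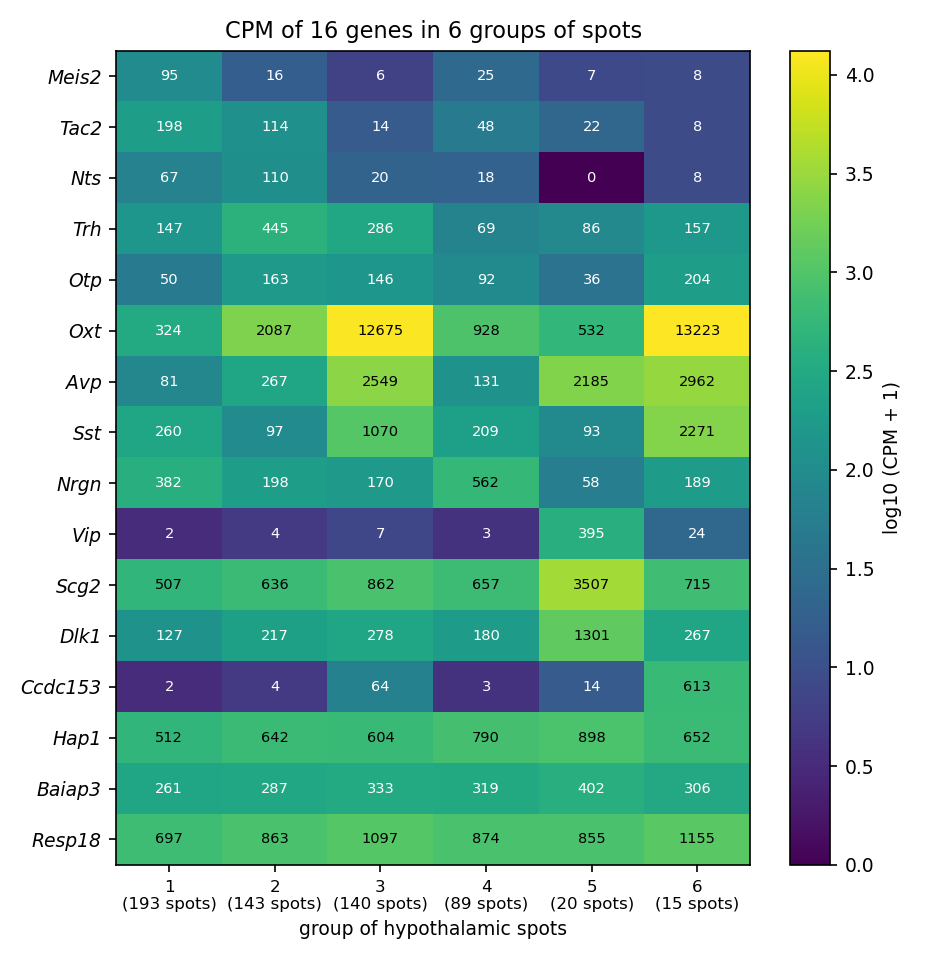
CPM of 16 genes in the 6 groups of hypothalamic spots, written in each cell and coloured by log10 of CPM plus 1. Sections are pooled, so the 12675 and 13223 CPM of Oxt in groups 3 and 6 rest mostly on posterior section 6 and, for group 3, anterior section 5, and the 395 CPM of Vip in group 5 on posterior section 6 alone; Tac2 is at 198 CPM in group 1.

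The posterior and anterior sections were compared within the hypothalamic spots. There is 1 anterior section, so the difference has no replicate check and carries no p-value; a gene was counted where both posterior sections were past 2-fold of the anterior section in the same direction with at least 50 counts. Of 5194 genes, 1 was higher in both posterior sections (Vps8; 0.0193%) and none lower (0%). Vps8, an endosomal tethering gene, had 313 and 89.4 CPM in posterior sections 2 and 6 against 29.0 CPM in anterior section 5, with exact Poisson 95% intervals of 288 to 340, 74.4 to 107 and 19.6 to 41.4 CPM that cover counting error only. It was also at 185 CPM in the other spots of posterior section 2.

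Oxt and Avp had their lowest and highest levels in the 2 posterior sections. Oxt was at 590 CPM (555 to 626) in posterior section 2 and 9360 CPM (9200 to 9523) in posterior section 6, on either side of 4205 CPM (4081 to 4332) in anterior section 5. Avp was at 62.0 CPM (51.2 to 74.4) and 2067 CPM (1992 to 2144), on either side of 857 CPM (802 to 915). Dlk1, which encodes no neuropeptide, took the same order, at 142 CPM (126 to 161) and 364 CPM (333 to 397) around 232 CPM (203 to 263) in anterior section 5. Vip was at 3.77 CPM (1.52 to 7.77) in posterior section 2 and 46.9 CPM (36.2 to 59.7) in posterior section 6, against 1.93 CPM (0.234 to 6.98) in anterior section 5, and 17 of 200 spots of posterior section 6 held a Vip count.

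Other genes ran the opposite way. Irs4 was at 104 CPM (89.9 to 120) in posterior section 2 and 41.1 CPM (31.1 to 53.3) in posterior section 6, with 73.4 CPM (57.9 to 91.9) in anterior section 5 between them. Gal was at 86.8 CPM (73.9 to 101) and 30.3 CPM (21.8 to 40.9), with 72.5 CPM (57.0 to 90.8) in anterior section 5, and Cartpt at 96.5 CPM (82.9 to 112) and 36.8 CPM (27.4 to 48.4), with 69.6 CPM (54.4 to 87.6). Trh varied least among these peptide genes, at 246 CPM (224 to 269) and 198 CPM (175 to 222) with 273 CPM (243 to 307) in anterior section 5. In pairs of sections 1.49% of 6509 genes differed past 2-fold between the hypothalamic spots of posterior sections 2 and 6. The share was 0.947% of 6439 genes between posterior section 2 and anterior section 5. Between posterior section 6 and anterior section 5 it was 0.304% of 5267 genes. By this count posterior section 6 was nearer to the anterior section than to the other posterior one. The other spots gave 0.612%, 1.1% and 0.219% for the same pairs, so this nearness was not confined to the hypothalamic spots. The summed spots differed in depth between sections, and the part of depth in these shares was not tested. The place of a section along the brain, the animal and the library cannot be told apart in these values.

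**Figure D5:**
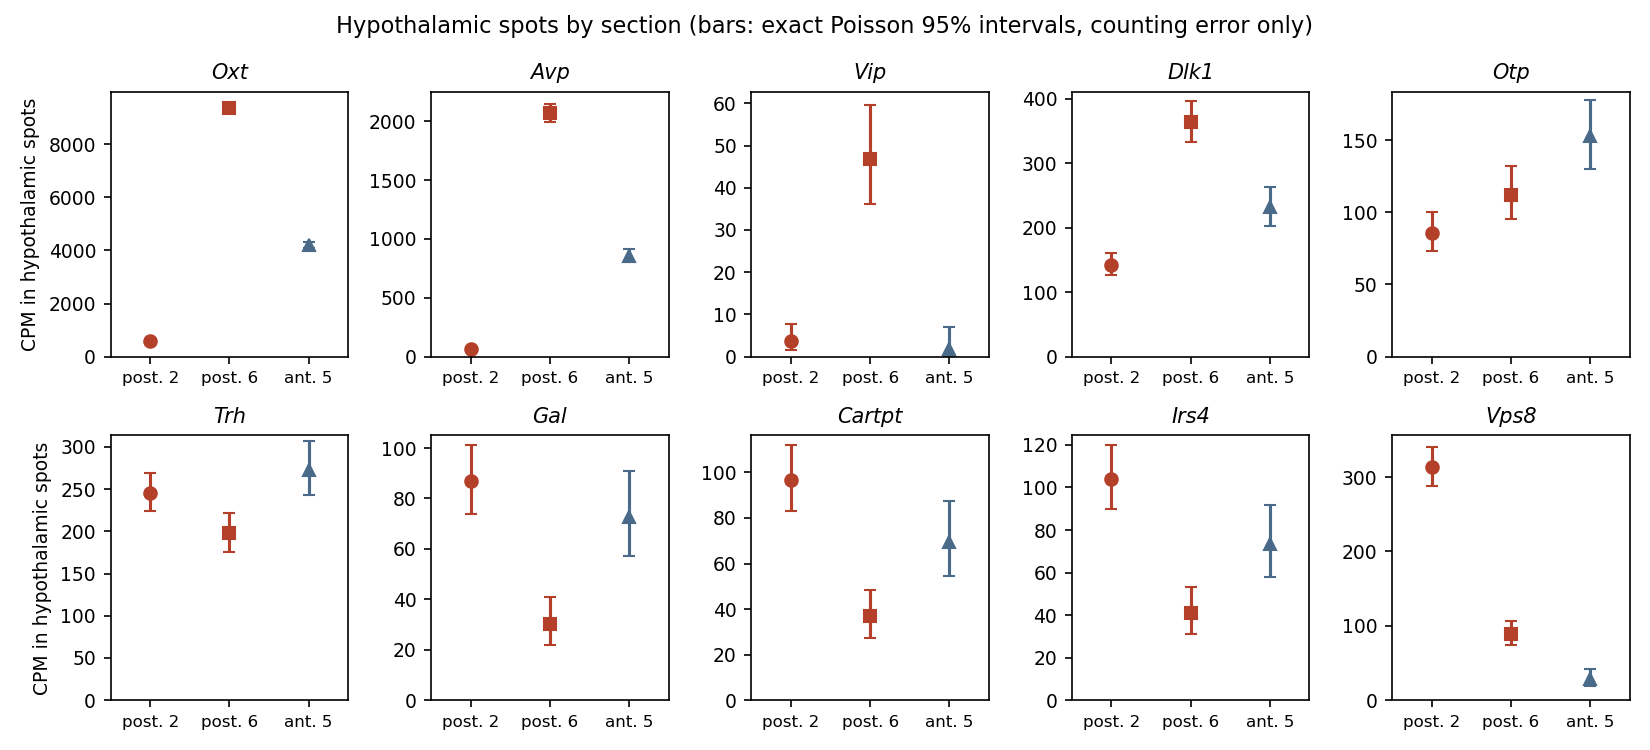
CPM of 10 genes in the hypothalamic spots of posterior section 2, posterior section 6 and anterior section 5, with bars for exact Poisson 95% intervals (counting error only). Oxt, Avp and Dlk1 are highest in posterior section 6, Irs4, Gal and Cartpt in posterior section 2, and Vps8 is at 313 CPM in posterior section 2.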

How the data were processed

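Raw UMI counts per gene and spot were deposited by the authors as whole numbers in 1 table for all sections; Space Ranger, Seurat and the builds NCBIM37 and mm10 are named in the submitters' processing notes, without versions or roles. The deposited spot annotation (other values: section names) gave each spot's section. 20 spots under a total count of 1000 were left out. All 28692 genes were read, of which 8714 were at 0 everywhere, and 0 columns of per-sample values were left unused. The spots, gene lists and alternatives were chosen with earlier results of these data known.

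Counts were summed per section and set of spots and tested with edgeR 4.0.16 in R 4.3.3 (filterByExpr, TMM, quasi-likelihood F test, section as a block, Benjamini-Hochberg adjustment over all genes tested, threshold 0.05). The design pairs sets of spots from the same section. Deviations of the same section's 2 sets correlated at 0.326 (section 2), 0.103 (section 5) and 0.087 (section 6). Sets of different sections correlated at -0.246 to 0.135, so only section 2 stood above that range. The test was checked on simulated counts. CPM is counts per 1000000 of the summed spots. Named genes were the 15 largest rises and 10 largest falls per comparison with a log2 change of at least 1 and 20 CPM, up to 4 members per list, and peptide genes with at least 50 counts; further list members were named after their values were seen. DESeq2 1.42.0 was an alternative. Clusters came from scanpy 1.11.5 (Leiden, highly variable genes, section means removed); no doublet caller was run on spots. Promoter letters came from a RefSeq table of GRCm38.p6. Some genes are not reported here. Scripts ran in Python 3.11.15.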

Additional observations from a re-analysis of the deposited data

How the results depend on the processing

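With DESeq2 1566 genes were called higher and 1775 lower against the other spots, 537 and 723 against the thalamic spots, and 1395 and 1445 against the striatal spots. Without a replicate block 2042 genes rose and 2201 fell against the other spots, 978 rose and 1192 fell against the thalamic spots, and 2137 rose and 2102 fell against the striatal spots. Leaving out 1 section at a time gave 1753 to 2221 higher and 2048 to 2377 lower calls against the other spots, 1015 to 1312 and 1256 to 1433 against the thalamic spots, and 2132 to 2228 and 2068 to 2272 against the striatal spots. The other counts against the other spots stayed within 1.5 times the main count: 1923 higher and 2318 lower with 100 spots per section, 2866 and 2892 with 300, 2571 and 2752 at a minimum of 2000 counts per spot, 2591 and 2756 with the score on plain counts, 2301 and 3016 without the filter on low counts, 2915 and 2475 without TMM, and 2695 and 2826 without the next 200 spots by score (chosen after seeing the data). Between posterior and anterior sections 0 genes were higher and 0 lower at 100 counts and 4-fold, and 2 were higher and 5 lower with 100 spots per section. With 300 spots per section Gbx2 (log2 0.60), Lhx8 (1.35) and Nkx2-1 (0.76) reversed against the other spots, and Pvalb went to -0.15 without posterior section 2 and 1.17 without posterior section 6 against the striatal spots; the cause was not tested. Of the values of single genes under an alternative, 3896 kept their side of the threshold and 114 no longer passed. The 3896 include values that changed sign where neither value passed. Gpr151 against the other spots, for example, had a log2 difference of 0.294, and of -0.674 without anterior section 5. With 3 sections and 1034938 counts in the smallest sum, genes of a few CPM rest on a few counts, and an absent call there was not detectable at this depth.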

Other observations

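Blood and nuclear RNA differed between the hypothalamic spots of the sections. Hbb-bs, a beta-globin gene of red blood cells, was at 142 CPM in posterior section 2, 1144 CPM in posterior section 6 and 676 CPM in anterior section 5, and Hbb-bt was at 24.8, 179 and 91.8 CPM. The imprinted noncoding RNA Kcnq1ot1 was at 23.7, 136 and 104 CPM, and the nuclear noncoding RNA Malat1 was at 741 CPM in posterior section 2 and 2455 CPM in posterior section 6. These took the same order over the sections as Oxt, Avp and Dlk1; their part in those differences was not tested.

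Over the hypothalamic spots of a section the genes most like Oxt after Avp were Nnat (mean r 0.395) and Sst (mean r 0.372), and Trh ran with Cbln1, a synapse-organising gene (mean r 0.324). Sst and the ependymal gene Ccdc153 had a mean r of 0.410. Avp and Pdyn, which encodes dynorphin, had a mean r of 0.324, while Pdyn was lower in the hypothalamic spots as a whole than in the other spots.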
